A study of Mus musculus with 12 samples.

Results

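The 10 genes described here carry out MHC class I presentation: the classical heavy chains *H2-K1* and *H2-D1*, the light chain *B2m*, the peptide transporter subunits *Tap1* and *Tap2*, tapasin (*Tapbp*), the immunoproteasome catalytic subunits *Psmb8*, *Psmb9* and *Psmb10*, and the transcriptional co-activator *Nlrc5*. They were chosen by name for their role from a table of 56923 genes. Their levels were not used for this, although earlier results of these data were known. All 10 had enough reads to be among the 18529 genes tested. They were measured by bulk RNA-seq of mouse back skin after 6 days of imiquimod (IMQ) cream, which produces psoriasis-like skin inflammation. The question put to these data was how the class I genes responded to IMQ, and whether the response differed between genotypes.

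Each of 4 groups held 3 female mice on a C57BL/6 background, 8 to 10 weeks old, 12 in all. WT control mice received vehicle cream and WT IMQ mice received 5% IMQ cream. The other 2 groups, control and IMQ, were labelled *Lcn2*-/- and received the same creams. *Lcn2* encodes lipocalin 2, an iron-siderophore binding protein of neutrophils and stressed epithelium, and the knockout is carried by every cell of the animal. The sample labels call this genotype a knockdown and give the control treatment as none. The study's methods name a knockout and a vehicle, and these were followed here.

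*Lcn2* itself was not absent from the libraries labelled *Lcn2*-/-. It was read at 10.5, 9.22 and 15.9 CPM (counts scaled to the normalized library size) in the 3 control mice labelled *Lcn2*-/- and at 34.3, 29.9 and 49.8 CPM in the 3 IMQ mice, against 6.28, 8.64 and 4.57 CPM in WT control and 61.2, 183 and 76.1 CPM in WT IMQ. In control skin each mouse labelled *Lcn2*-/- lay above each WT mouse, and in IMQ skin each lay below each WT mouse. The paper likewise lists *Lcn2* among the genes lower in *Lcn2*-/- than in WT skin after IMQ. Where in the gene these reads fall is not known from a count per gene. The groups are therefore called KO-labelled below, and every difference between genotypes is a difference between labels. The extraction text in the labels speaks of retinas, whereas the tissue label is skin. Of 8 retina markers, none had more than 24 counts in any library, and the 10 keratinocyte markers summed to at least 5082 CPM in every mouse. Library totals ran from 16448226 to 28592110 counts, and a floor of 3 counts stood for 0.105 to 0.182 CPM, a limit that covers counting error only.

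MHC class I molecules display peptides from proteins made inside the cell to CD8 T cells. The proteasome cuts the proteins, TAP carries the peptides into the endoplasmic reticulum, tapasin holds the empty heavy chain and *B2m* pair next to TAP until a peptide fits, and the loaded complex moves to the surface. Interferons are the known inducers of the pathway: through IRF1 and NLRC5, among other factors, they raise the heavy chains, TAP and the inducible proteasome subunits, which take the place of the constitutive catalytic subunits. In skin, keratinocytes, fibroblasts, endothelium and leukocytes all carry class I, with leukocytes and endothelium among the cells that carry much of it.

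Of the 10 genes, 7 lie on chromosome 17 within the mouse MHC (GRCm38). *Psmb9* (ENSMUSG00000096727, chr17:34181987-34187764, minus strand), *Tap1* (ENSMUSG00000037321, chr17:34187553-34197225, plus strand), *Psmb8* (ENSMUSG00000024338, chr17:34197721-34201454, plus strand) and *Tap2* (ENSMUSG00000024339, chr17:34203527-34216321, plus strand) follow each other directly. *Tapbp* (ENSMUSG00000024308, chr17:33915899-33929292) and *H2-K1* (ENSMUSG00000061232, chr17:33996017-34000347, minus strand) lie before them and *H2-D1* (ENSMUSG00000073411, chr17:35262730-35267499) after them. *B2m* (ENSMUSG00000060802) is at chr2:122147686-122153083, *Psmb10* (ENSMUSG00000031897) at chr8:105935735-105938444 and *Nlrc5* (ENSMUSG00000074151) at chr8:94434356-94527272. Values are counts on all exons of each gene.

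RefSeq promoter sequence (GRCm38.p6, 250 bases before to 50 after each start site) was at hand for 8 of the 10 genes, and 4 stretches of it are shown because they hold the control elements for which class I genes are known. Background on these elements is that NLRC5 is recruited to class I promoters by factors bound to the X box, with ATF1 or CREB on sites with the letters TGACG and NF-Y on the Y box core (CCAAT, which reads ATTGG on the other strand). Capitals mark the letters found by a search of both strands for these motifs, for the core of NF-kB sites and for the core of the interferon-stimulated response element. In *B2m*, the last of these comes first and the NF-kB core follows it. The first stretch runs from the *Psmb9* start site to that of *Tap1* on the plus strand (chr17:34187331-34187555). These start sites are 226 bases apart and face away from each other, so that both genes share the stretch.
Tap1 and Psmb9: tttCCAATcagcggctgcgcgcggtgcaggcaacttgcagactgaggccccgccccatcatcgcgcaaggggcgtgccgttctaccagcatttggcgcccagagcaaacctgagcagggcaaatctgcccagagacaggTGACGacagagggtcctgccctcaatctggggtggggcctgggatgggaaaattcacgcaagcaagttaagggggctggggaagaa
The other 3 are from *H2-K1* (chr17:34000354-34000473, minus strand), *H2-D1* (chr17:35262908-35263027, plus strand) and *B2m* (chr2:122147533-122147643, plus strand).
H2-K1: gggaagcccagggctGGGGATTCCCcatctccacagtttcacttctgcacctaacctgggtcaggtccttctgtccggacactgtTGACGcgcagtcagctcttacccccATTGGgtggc
H2-D1: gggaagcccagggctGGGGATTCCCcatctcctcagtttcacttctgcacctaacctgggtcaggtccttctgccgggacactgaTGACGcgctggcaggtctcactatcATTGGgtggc
B2m: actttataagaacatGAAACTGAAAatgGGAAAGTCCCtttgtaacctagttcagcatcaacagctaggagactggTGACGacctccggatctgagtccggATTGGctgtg

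In *H2-K1*, *H2-D1* and *B2m* the first base of ATTGG followed that of TGACG by 25 bases, an arrangement held by 31 of all 32851 promoter windows (0.0944%). This spacing was looked up after the matches were seen. The NF-kB core was found in the same 3 genes and in 3.24% of all windows. TGACG was found in 5 of the 8 genes and in 20.8% of windows, and CCAAT in 6 of the 8 and in 37.4%. *Tap1* and *Psmb9* share their promoter stretch, and the same TGACG and the same CCAAT were counted for both genes. These counts are therefore of genes and not of separate promoters. The core of the interferon-stimulated response element was found only in *B2m* among the 8 (3.44% of windows), and the gamma-activated site core TTCNNNGAA only in *Psmb8* (8.30% of windows). A match is a description of the letters and does not show that a factor was bound in this skin. The core of the interferon-stimulated response element was searched as a fixed pattern. Looser forms of the element were not searched, so a promoter without a match, such as that of *H2-K1* or *H2-D1*, may still hold one.

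Levels were compared between genes per kb of exon. *B2m* stood highest, with a mean of 1977 CPM per kb in WT control, followed by *H2-D1* at 458 and *H2-K1* at 324. *Tapbp* (28.2 CPM per kb), *Psmb10* (22.04) and *Tap1* (14.6) came next. *Psmb8* (10.7), *Tap2* (9.11), *Psmb9* (8.65) and *Nlrc5* (6.35) were the lowest 4. In this order the ranges of neighbours over the 3 WT control mice overlapped, except between *B2m* and *H2-D1* and between *H2-K1* and *Tapbp*. The heavy chains are near-identical to other class I genes of the MHC, and how reads that fit more than 1 of them were counted is not given in the sources used here, so the split between *H2-K1*, *H2-D1* and the other heavy chains is uncertain. The exons of *Tap1* and *Psmb9* overlap on opposite strands, and those of *Tapbp* overlap *Zbtb22* on the same strand. *Nlrc5* and *Tap2* overlap antisense RNAs that had 696 and 129 counts over all 12 libraries. Whether the counting used strand is not given, so reads in these overlaps cannot be told apart.

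**Figure D1:**
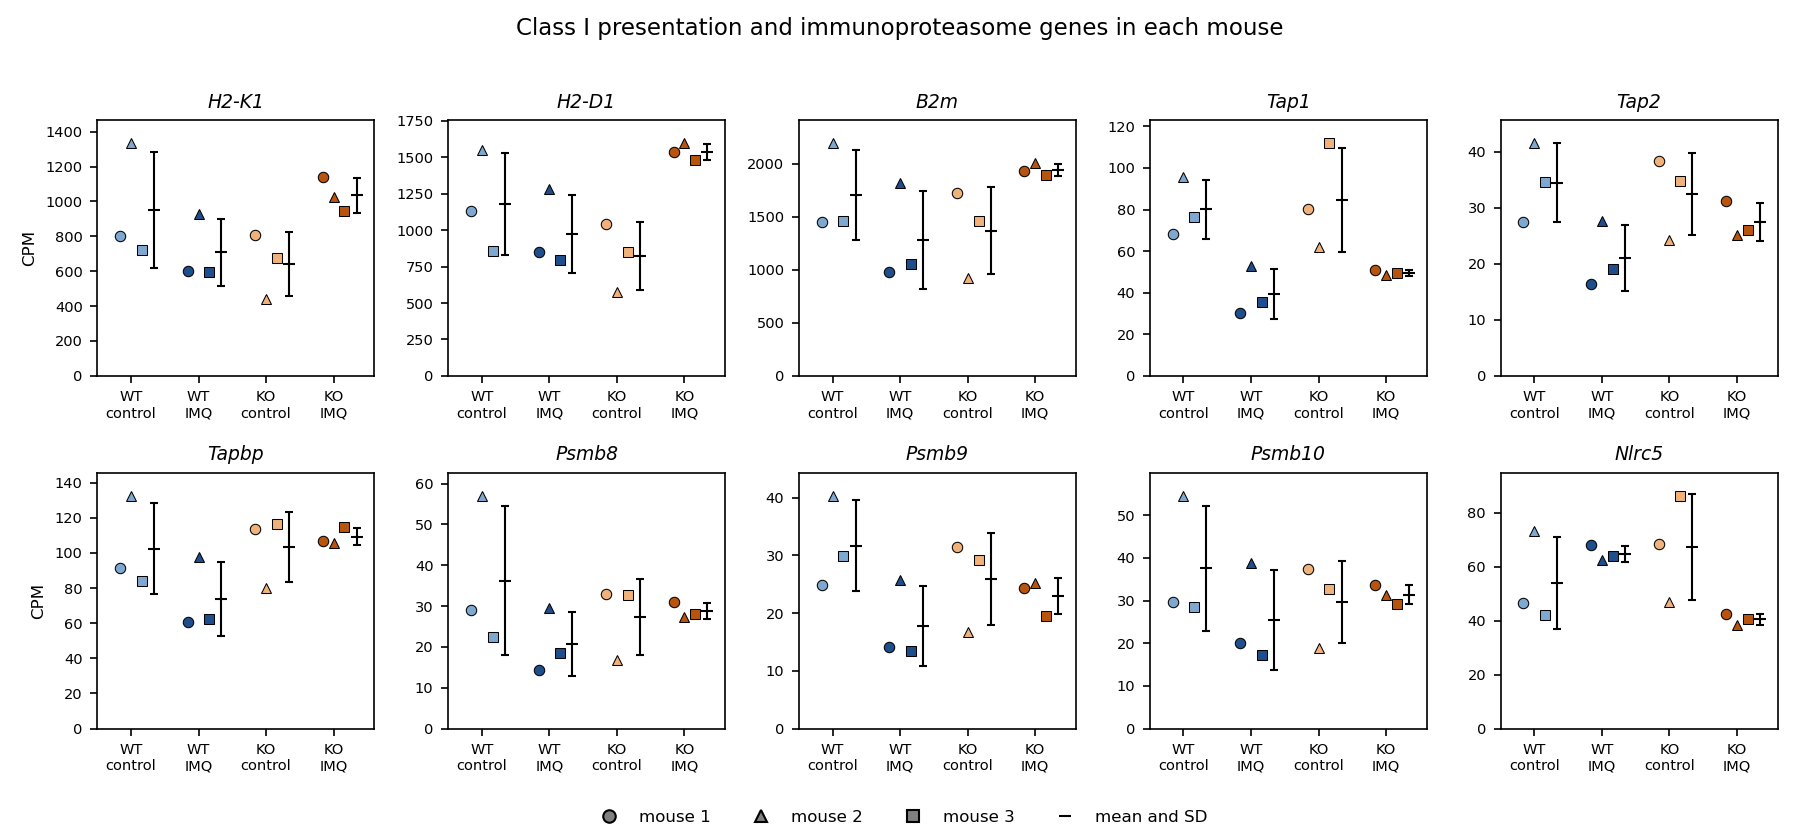
Level of each of the 10 genes in each of the 12 mice, in CPM on a linear axis from 0, with the symbol showing the mouse number and the bar the mean and SD of 3 mice; KO stands for the mice labelled *Lcn2*-/-. The group means of the heavy chains and *B2m* are highest in KO IMQ, although WT control mouse 2 is the top point for *H2-K1* and *B2m*, *Tap1* is low in both IMQ groups, and *Nlrc5* is lower in the 3 KO IMQ mice than in any WT IMQ or KO control mouse.

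In WT skin, IMQ left no class I gene higher and 2 of the 10 lower, both of them TAP subunits. *Tap1*, which binds and moves peptide together with *Tap2*, fell to 0.492 times its control level. The heavy chains and *B2m* showed no change past the test, and *Nlrc5* had the only positive difference.

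*Tap1* was read at 68.3, 95.7 and 76.4 CPM in the 3 WT control mice and at 30.2, 53.0 and 35.4 CPM in the 3 WT IMQ mice. Each IMQ mouse was below each control mouse. The log2 fold change was -1.02 ± 0.24 (SE, n = 3 against 3), with an adjusted p of 0.0079 from the quasi-likelihood test of edgeR, adjusted by Benjamini-Hochberg over all genes tested, as is every adjusted p of a gene below. *Tap1* remained past the threshold with any 1 of the 6 mice left out, at adjusted p values from 0.00207 to 0.0392.

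*Tap2* was read at 27.4, 41.4 and 34.5 CPM in control and at 16.4, 27.6 and 19.1 CPM in IMQ. The groups overlapped narrowly, since the highest IMQ mouse lay just above the lowest control mouse. The log2 fold change was -0.71 ± 0.23, with an adjusted p of 0.0361 by edgeR. The call was kept without WT control mouse 1 (0.0308) and without WT IMQ mouse 2 (0.00985), and was lost without WT control mouse 2 (0.117), WT control mouse 3 (0.0709), WT IMQ mouse 1 (0.143) or WT IMQ mouse 3 (0.118).

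These 2 of 10 lower genes stand beside 14.3% of all tested genes that were lower in this comparison, and the 0 higher genes beside 14.2% that were higher. By a fold above 2 with an unadjusted p under 0.05, *Tap1* was the 1 lower gene (9.79% of all tested genes) and 0 were higher (8.4%). *Tap1* alone had groups that did not overlap, where 20.6% of all tested genes lay lower without overlap. The median log2 fold change of the 10 genes was -0.52, against -0.02 over all tested genes, and 9 of the 10 had a negative sign. Controls here are the same 3 mice for every gene, and p-values measure only the spread between these mice.

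The 3 immunoproteasome subunits, which supply the inducible catalytic sites, did not pass the test. *Psmb9* was read at 24.9, 40.3 and 29.8 CPM in WT control and at 14.1, 25.7 and 13.5 CPM in WT IMQ. Its log2 fold change was -0.84 ± 0.30, with an adjusted p of 0.054 by edgeR, while DESeq2 called it lower (-0.82, adjusted p 0.0264). *Psmb8* went from 36.2 ± 18.3 CPM (SD, n = 3) to 20.7 ± 7.85 CPM, a log2 difference of -0.81 ± 0.37 with an adjusted p of 0.123. For *Psmb10* the means were 37.6 ± 14.7 and 25.4 ± 11.7 CPM, and the log2 difference was -0.57 ± 0.35 with an adjusted p of 0.242. In each of these subunits the highest WT IMQ mouse, mouse 2, lay within the range of the control mice, and the other 2 WT IMQ mice lay below it.

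*H2-K1* was read at 804, 1333 and 722 CPM in WT control and at 604, 929.8 and 594 CPM in WT IMQ. *H2-D1* was read at 1135, 1554 and 857 CPM in control and at 848, 1285 and 797 CPM in IMQ. *B2m* was read at 1453, 2189.5 and 1457 CPM in control and at 981, 1815 and 1054 CPM in IMQ. In all 3 genes mouse 2 was the highest of its group and the groups overlapped. The log2 differences were -0.43 (95% interval -1.03 to 0.18), -0.28 (-0.85 to 0.30) and -0.41 (-1.01 to 0.20), with adjusted p values of 0.271, 0.464 and 0.297 by edgeR. These intervals span 0, and a fall of up to 2-fold in *H2-K1* or *B2m* lies within them. Tapasin differed by -0.48 ± 0.22 on the log2 scale (adjusted p 0.127).

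*Nlrc5* was read at 46.4, 73.3 and 42.0 CPM in WT control and at 68.0, 62.5 and 63.9 CPM in WT IMQ. The 3 IMQ mice lay close together and within the control range. The log2 difference was 0.26 ± 0.23, with an adjusted p of 0.409 by edgeR.

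In KO-labelled skin 3 of the 10 genes were called after IMQ. *H2-D1* rose 1.87-fold, while *Tap1* and *Nlrc5* fell, and each of these calls was lost in 5 of 6 fits without 1 mouse. The immunoproteasome subunits, *Tap2* and tapasin had log2 differences between -0.24 and 0.08, none of them past the test. Counted over the 10 genes, 1 was higher (14.1% of all tested genes were higher) and 2 were lower (11.2% were lower). None passed a fold above 2 with an unadjusted p under 0.05, higher (8.59%) or lower (8.37%). Groups did not overlap for 3 higher genes (23.1% of all tested genes) and 2 lower ones (22.8%), and the median log2 fold change was 0.07 against -0.05 over all tested genes.

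*H2-D1*, the heavy chain that presents peptides as H-2D, was read at 1043, 576 and 854 CPM in the KO-labelled control mice and at 1535, 1596 and 1484 CPM in the KO-labelled IMQ mice. The IMQ mice lay tightly together and above every control mouse. The log2 fold change was 0.90 ± 0.26, with an adjusted p of 0.0279 by edgeR. *H2-K1*, the other classical heavy chain, was read at 806, 442 and 675 CPM in control and at 1139, 1024 and 943 CPM in IMQ. Again each IMQ mouse was above each control mouse, and the log2 difference of 0.69 ± 0.28 did not pass (adjusted p 0.087). *B2m* was read at 1724, 921 and 1462 CPM in control and at 1927, 2005 and 1895 CPM in IMQ, with a log2 difference of 0.50 ± 0.28 (adjusted p 0.202) and no overlap.

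*Tap1* was read at 80.0, 62.2 and 112 CPM in the KO-labelled control mice and at 50.8, 48.3 and 49.4 CPM in the IMQ mice. The 3 IMQ mice spanned little more than 2 CPM, all of them below the control range. The log2 fold change was -0.77 ± 0.23, with an adjusted p of 0.0319 by edgeR. *Nlrc5* was read at 68.4, 47.0 and 86.2 CPM in control and at 42.6, 38.5 and 40.5 CPM in IMQ, again without overlap, with a log2 fold change of -0.73 ± 0.23 (adjusted p 0.0352).

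With 1 of the 6 mice left out, *H2-D1* kept its call without KO-labelled control mouse 1 (adjusted p 0.0197 by edgeR) and lost it without control mouse 2 (0.0973), control mouse 3 (0.0714) or IMQ mouse 1 (0.0644), 2 (0.0739) or 3 (0.0661). *Tap1* kept its call without control mouse 2 (0.0171) and lost it without control mouse 1 (0.0507), control mouse 3 (0.133) or IMQ mouse 1 (0.075), 2 (0.090) or 3 (0.0893). *Nlrc5* did the same, with 0.0117 without control mouse 2, and 0.0696, 0.141, 0.0724, 0.101 and 0.0944 without control mice 1 and 3 and IMQ mice 1, 2 and 3. The reads counted on 18 class I heavy chain genes were also summed into 1, which removes any split of counted reads among these genes. Reads that the counting may have left out are not in the sum, and *H2-Q8* and *H2-Q9* had no row. In KO-labelled skin the sum had a log2 difference of 0.66 ± 0.27 and did not pass (unadjusted p 0.0316, adjusted p 0.0946 by edgeR). In WT skin the same sum differed by -0.39 ± 0.27 (adjusted p 0.298).

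**Figure D2:**
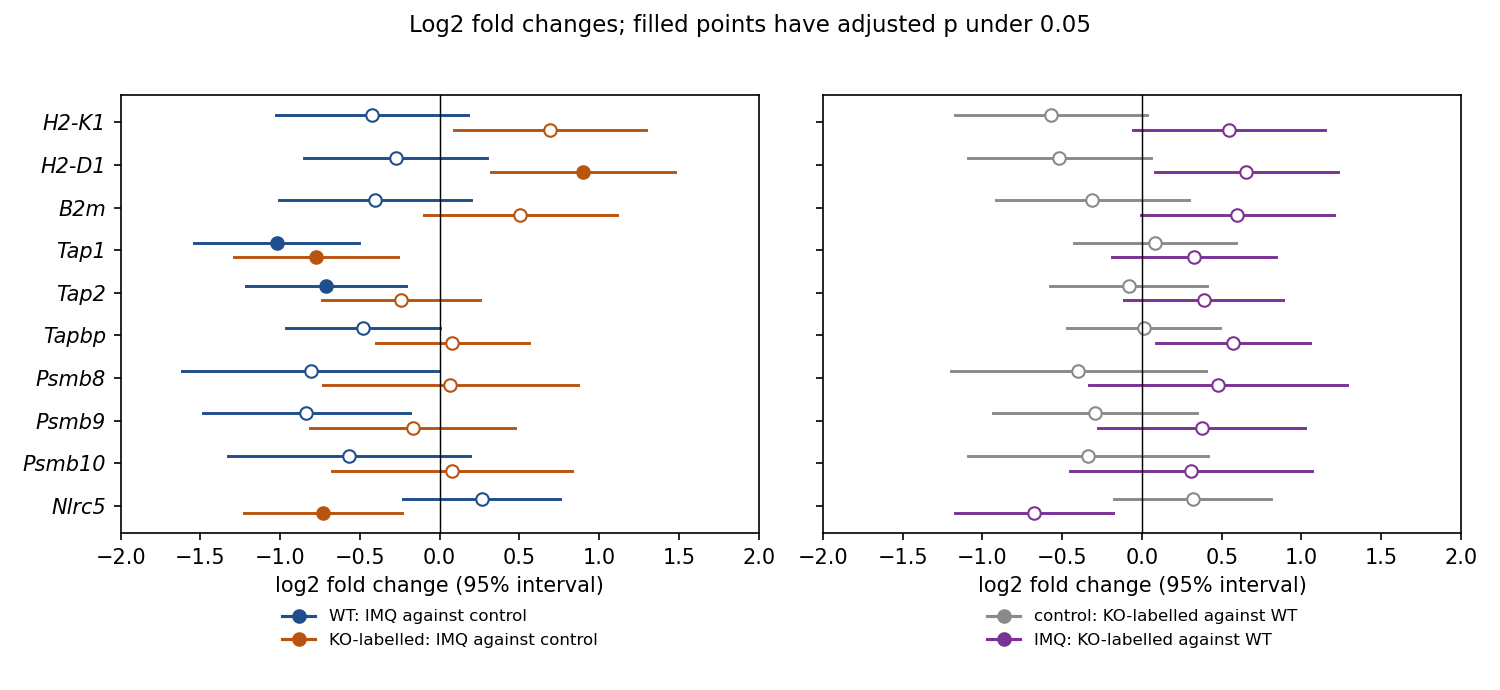
Log2 fold changes of the 10 genes with their 95% intervals from the edgeR fit, IMQ against control within each genotype label on the left and KO-labelled against WT within each treatment on the right; filled points have an adjusted p under 0.05. *Tap1* is filled in both IMQ responses, *Tap2* in WT, *H2-D1* and *Nlrc5* in KO-labelled mice, and no point is filled on the right.

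The remaining 5 genes had KO-labelled IMQ mice inside the control range. For *Tap2* the means were 32.5 ± 7.30 CPM in control and 27.5 ± 3.32 CPM in IMQ (log2 difference -0.24, adjusted p 0.459). *Tapbp* stood at 103 ± 20.1 and 109 ± 4.87 CPM (0.08, adjusted p 0.822), and *Psmb9* at 25.8 ± 7.97 CPM in control and between 19.5 and 25.2 CPM in IMQ (-0.17, adjusted p 0.706). *Psmb8* stood at 27.4 ± 9.31 and 28.8 ± 1.86 CPM (0.07, adjusted p 0.913), and *Psmb10* at 29.7 ± 9.65 and 31.4 ± 2.19 CPM (0.08, adjusted p 0.891). The signs of the *Tapbp*, *Psmb8* and *Psmb10* differences turned without KO-labelled control mouse 2, to -0.07, -0.19 and -0.16.

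Set directly against each other, the IMQ mice of the 2 labels did not differ in any of the 10 genes at an adjusted p under 0.05 (2.19% of all tested genes were higher and 2.6% lower in KO-labelled IMQ skin). None had a fold above 2 with an unadjusted p under 0.05 (3.1% higher and 3.35% lower). At an unadjusted p under 0.05 alone, 2 genes were higher (12.5% of all tested genes) and 1 was lower (14.5%). *H2-D1* was higher by 0.66 ± 0.26 on the log2 scale (adjusted p 0.141 by edgeR), *Tapbp* by 0.57 ± 0.22 (0.131), and *Nlrc5* was lower by -0.68 ± 0.23 (0.0923). The groups did not overlap for 4 higher genes, *H2-K1*, *H2-D1*, *B2m* and *Tapbp* (16% of all tested genes), and for 1 lower gene, *Nlrc5* (17.3%). Without WT IMQ mouse 2, *B2m* (0.94, adjusted p 0.0385), *H2-D1* (0.91, 0.0485) and *Tapbp* (0.83, 0.026) passed the test. That mouse was the highest of its group for 9 of the 10 genes. In no other fit without 1 mouse did any of the 10 pass. The share of all tested genes called in that fit is not given here. *Nlrc5* passed it when only the 6 IMQ mice were fitted (-0.66, adjusted p 0.0148).

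In control skin, none of the 10 genes differed between the control mice of the 2 labels, where 0.0054% of all tested genes were higher and the same share lower. No gene had an unadjusted p under 0.05 (2.65% of all tested genes higher and 3.95% lower), with a fold above 2 (1.35% and 0.928%) or without, and none had groups without overlap (4.19% of all tested genes higher and 5.18% lower). The log2 differences ran from -0.57 for *H2-K1* (95% interval -1.17 to 0.03) to 0.32 for *Nlrc5* (-0.17 to 0.81), so that a 2-fold lower level of *H2-K1* in KO-labelled control skin lay within the interval.

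The difference between the IMQ responses, KO-labelled minus WT, was tested as an interaction in the same fit. None of the 10 passed an adjusted p under 0.05 (1.37% of all tested genes had a higher and 0.783% a lower response), and 3 had a higher response (12.3%) and 1 a lower one (11.9%) at an unadjusted p under 0.05. With a fold above 2 as well, 2 had a higher response (6.06% of all tested genes), *H2-D1* and *H2-K1*, and 0 a lower one (4.91%). *H2-D1* had the largest value, 1.17 ± 0.37 on the log2 scale (unadjusted p 0.00841, adjusted p 0.0974 by edgeR), followed by *H2-K1* with 1.12 ± 0.39 (0.0145 and 0.12) and *B2m* with 0.91 ± 0.39 (0.0389 and 0.184). *Nlrc5* had the only negative value, -0.99 ± 0.32 (0.00918 and 0.0998). *Tap1*, which fell under both labels, had the smallest difference between its responses, 0.25 ± 0.33 (adjusted p 0.68). Without WT IMQ mouse 2, *B2m*, *H2-D1* and *H2-K1* passed the test, with adjusted p values of 0.0459, 0.0347 and 0.0489 by edgeR. Without WT control mouse 3, *H2-D1* passed it (1.36, adjusted p 0.0486). In no other fit without 1 mouse did any of the 10 pass. The shares of all tested genes called in these fits are not given here. DESeq2 called *H2-D1* (1.16, adjusted p 0.028), *H2-K1* (1.11, 0.0486) and *Nlrc5* (-1.01, 0.0403).

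The inducible proteasome subunits compete for their sites with constitutive ones, *Psmb8* with *Psmb5*, *Psmb9* with *Psmb6* and *Psmb10* with *Psmb7*, and the ratio of the pair within a library does not depend on how the library is scaled. None of the constitutive subunits was called. In WT skin their log2 differences between IMQ and control were 0.04 for *Psmb5*, -0.00 for *Psmb6* and -0.06 for *Psmb7*, and in KO-labelled skin -0.03, 0.16 and -0.10, with no adjusted p under 0.378 by edgeR. With 3 mice against 3 the exact permutation test cannot give a p below 0.1, and 28 ratio tests were made.

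*Psmb9* to *Psmb6* was the ratio that separated the WT groups. It was 0.192, 0.336 and 0.181 in WT control and 0.107, 0.171 and 0.102 in WT IMQ. Each IMQ mouse was below each control mouse, and the mean log2 ratio differed by -0.88 (exact permutation p = 0.1, two-sided, adjusted p 0.56). *Psmb8* to *Psmb5* differed by -0.81 and *Psmb10* to *Psmb7* by -0.54, both with overlap (exact permutation p = 0.2 and p = 0.4). In KO-labelled skin the 3 ratios differed by -0.29, 0.17 and 0.24 on the log2 scale, all with overlap.

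Averaged over the 3 sites, the log2 ratio differed by -0.74 in WT skin and by 0.04 in KO-labelled skin. The second value turned to -0.30 without KO-labelled control mouse 2. The ratio of the TAP subunits separated control from IMQ under both labels. *Tap1* to *Tap2* was 2.50, 2.31 and 2.21 in WT control and 1.84, 1.92 and 1.85 in WT IMQ, and in KO-labelled mice it was 2.09, 2.56 and 3.22 in control and 1.62, 1.92 and 1.901 in IMQ. Both pairs of groups were separate, with log2 differences of -0.32 and -0.51 (exact permutation p = 0.1 each).

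In KO-labelled skin the ratios between the parts of the class I complex also separated the groups. *H2-D1* to *H2-K1* was 1.29, 1.30 and 1.27 in control and 1.35, 1.56 and 1.57 in IMQ, higher in each IMQ mouse. *B2m* to the sum of *H2-K1* and *H2-D1* was 0.932, 0.904 and 0.957 in control and 0.721, 0.765 and 0.781 in IMQ, lower in each IMQ mouse. The mean log2 ratios differed by 0.21 and -0.30 (exact permutation p = 0.1 each). Over the 28 tests the smallest adjusted p was 0.56.

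**Figure D3:**
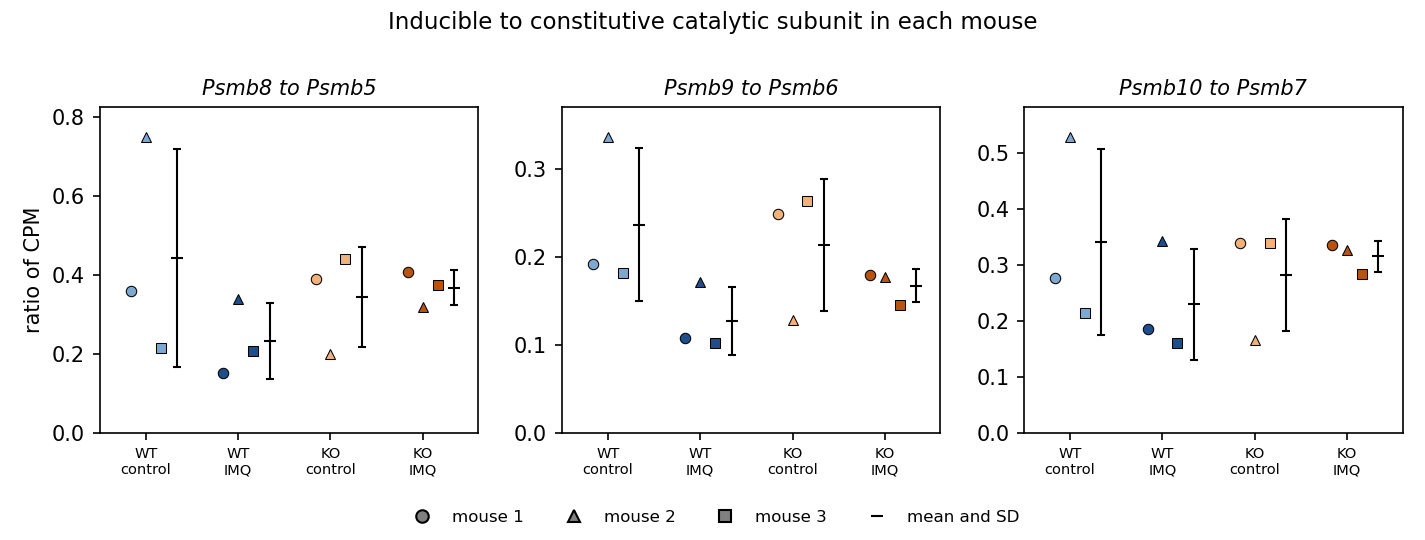
Ratio of CPM of each inducible catalytic subunit to the constitutive subunit of the same site in each mouse, on linear axes from 0, with the mean and SD of 3 mice as bars; KO stands for the mice labelled *Lcn2*-/-. *Psmb9* to *Psmb6* is lower in each WT IMQ mouse (0.102 to 0.171) than in each WT control mouse (0.181 to 0.336), and the other ratios overlap between control and IMQ.

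Counts of called genes in the lists below stand beside 14.2% of all tested genes higher and 14.3% lower in WT skin. In KO-labelled skin these shares were 14.1% and 11.2%. The other class I heavy chains of the MHC were 18 listed genes, of which 13 were tested. In WT skin 1 was higher and 5 were lower, with a median log2 fold change of -0.92. *H2-Q6* and *H2-Q7*, Qa-2 heavy chains that are bound to the membrane by a lipid anchor, fell by 1.52 and 1.57 on the log2 scale (adjusted p 0.00921 and 0.023 by edgeR). Without 1 of the 6 mice, *H2-Q6* was called in 6 of 6 fits and *H2-Q7* in 2 of 6. *H2-T23*, which makes the Qa-1 ligand of NK cell receptors, differed by -0.74 (adjusted p 0.0534), *H2-T22* by -0.57 (0.121) and *H2-Q4* by -0.39 (0.319).

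In KO-labelled skin the same genes lay near 0. *H2-Q6* differed by -0.21 (adjusted p 0.688), *H2-Q7* by 0.03 (0.966), *H2-T23* by 0.02 (0.96), *H2-T22* by -0.12 (0.761) and *H2-Q4* by 0.00 (1). There 1 of the 13 was higher and 3 were lower, with a median of -0.21. *H2-M5* and *H2-M9*, both of the M region of the MHC, were called in the same direction under both labels, which have no mice in common. *H2-M5* fell from between 5.31 and 8.55 CPM to between 0.242 and 0.630 CPM in WT skin and from between 5.01 and 8.44 CPM to between 0.0585 and 0.780 CPM in KO-labelled skin, by 3.97 and 4.24 on the log2 scale. The highest count of *H2-M5* in an IMQ library was 13. *H2-M9* rose, by 2.23 (adjusted p 0.000812) and 1.77 (0.00393). *H2-M2*, also of the M region, lay between 12.5 and 18.96 CPM in WT control and between 0.242 and 2.55 CPM in WT IMQ. In KO-labelled skin it lay between 10.3 and 23.8 CPM in control and between 0.420 and 1.17 CPM in IMQ. Over 5 alternative fits its KO-labelled log2 difference ran from -4.82 to -4.65, called in all 5, against -4.33 to -4.23 for *H2-M5*.

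Other molecules that pair with *B2m* were 4 in number. *Cd1d1*, which presents lipids to NKT cells, fell by 0.77 on the log2 scale in WT skin (adjusted p 0.0253 by edgeR, called in 3 of 6 fits without 1 mouse), where 2 of the 4 were lower. *Hfe*, a regulator of iron uptake that binds *B2m*, rose by 1.27 in KO-labelled skin (0.00172), the only 1 of the 4 called there. Among 7 genes of peptide loading and trimming in the endoplasmic reticulum, 2 were lower in WT skin and none was called in KO-labelled skin. *Tapbpl*, the tapasin-related peptide editor, fell from 31.8, 43.4 and 46.0 CPM to 17.02, 28.0 and 15.6 CPM in WT skin, by 1.00 on the log2 scale (adjusted p 0.00914). *Erap1*, which trims peptides to length, differed by -0.01 in WT and 0.19 in KO-labelled skin, neither past the test.

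The rest of the proteasome moved little. In WT skin 0 of the 3 constitutive catalytic subunits, 1 of 11 other subunits of the 20S core, 1 of 18 subunits of the 19S cap, 0 of 4 activators and 0 of 5 assembly factors were called, and in KO-labelled skin 0, 1, 0, 0 and 1. The medians of these lists lay between -0.00 and 0.14 in WT skin and between -0.16 and 0.01 in KO-labelled skin. The interferon-inducible activator subunits *Psme1* and *Psme2* differed by -0.38 (adjusted p 0.0871 by edgeR) and -0.00 (0.993) in WT skin and by 0.03 (0.914) and -0.22 (0.437) in KO-labelled skin.

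*Psmb4*, a structural subunit of the 20S core that carries no catalytic site, was called in both responses with opposite signs. It went from 142 ± 9.91 to 104 ± 12.2 CPM in WT skin and from 99.4 ± 7.53 to 133 ± 8.76 CPM in KO-labelled skin. The log2 fold changes were -0.45 (adjusted p 0.0116 by edgeR) and 0.42 (0.018), and the difference between them, 0.87 ± 0.16, had an adjusted p of 0.028. That difference was called in 5 of 12 fits without 1 mouse.

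**Figure D4:**
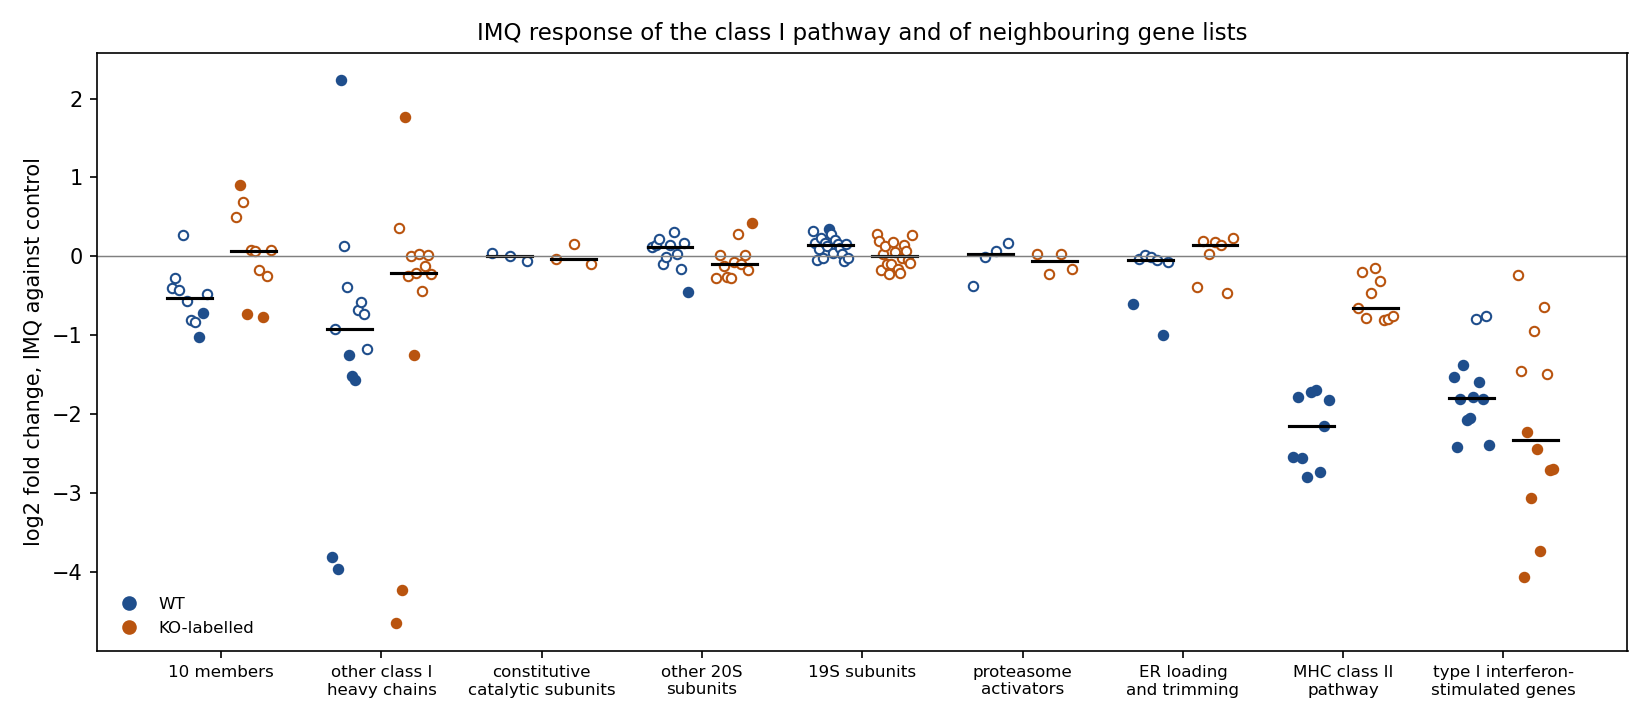
Log2 fold change of IMQ against control for each gene of 9 lists, WT in blue and KO-labelled in orange, with filled points for an adjusted p under 0.05 and a black line at the median of each list. The proteasome lists lie close to 0, the 10 class I genes have medians of -0.52 and 0.07, the class II genes have medians of -2.15 and -0.65, and type I interferon-stimulated genes lie low under both labels (-1.80 and -2.33).

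The genes that send and read the interferon signal were compared next. *Ifng* and *Ifnb1* were barely read, with at most 10 and 4 counts in a library, and were not tested. *Ifng* had 0 counts in all 3 KO-labelled IMQ libraries, and *Ifnb1* had 0 counts in all 6 IMQ libraries. The receptor and kinase genes were well read. In KO-labelled skin 5 of 8 tested inputs were higher, *Ifnar2* by 1.19 on the log2 scale (adjusted p 0.00568 by edgeR), and in WT skin 1 of 8, the kinase *Jak2*, by 0.49 (0.0302, called in 2 of 6 fits without 1 mouse). The share of all tested genes that were higher was 14.1% in KO-labelled and 14.2% in WT skin.

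Of 17 transcription factors of class I genes, 2 were higher and 0 lower in WT skin, among them the NF-kB subunit *Nfkb1*, which rose by 0.72 (adjusted p 0.000244). In KO-labelled skin 3 were higher and 7 lower. Among all tested genes 14.2% were higher and 14.3% lower in WT skin, and 14.1% and 11.2% in KO-labelled skin. *Irf1*, the interferon-induced activator of class I and *Psmb9* transcription, was read at 63.9, 37.6 and 83.9 CPM in control and at 31.6, 31.0 and 32.8 CPM in IMQ, a fall of 0.96 on the log2 scale (adjusted p 0.0366 by edgeR). *Stat2* fell by 1.27 (0.00688). *Irf8*, a factor of macrophages and dendritic cells, rose by 1.07 (0.0248). In WT skin *Irf1* differed by -0.33, which did not pass the test. Of the 6 fits without 1 mouse, *Irf1* was called in 1 and *Irf8* in 2.

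Neighbouring antigen-presentation and interferon genes were read in the same libraries. All 9 genes of the class II pathway fell in WT skin, with a median of -2.15. *H2-Ab1*, a class II beta chain, went from 730, 1110 and 586 CPM to 77.8, 197 and 74.3 CPM. In KO-labelled skin 0 of the 9 were called, with a median of -0.65. The 5 Langerhans and dendritic cell markers summed to 54.9 to 74.7 CPM in WT control, 15.2 to 25.7 in WT IMQ, 45.6 to 89.4 in KO-labelled control and 27.4 to 39.4 in KO-labelled IMQ. Of these markers 3 were lower in WT skin and 2 in KO-labelled skin, and their part in the class II values was not tested. *Ciita*, the class II counterpart of *Nlrc5*, fell by 1.78 in WT skin (adjusted p 0.00037 by edgeR) and differed by -0.20 in KO-labelled skin (0.577), and the responses differed by 1.58 ± 0.34 (0.0431). Of 12 type I interferon-stimulated genes, 10 fell in WT skin and 7 in KO-labelled skin, with 0 higher in either. The 12 genes summed to 139 to 611 CPM in WT control and 567 to 1561 CPM in KO-labelled control. After IMQ they summed to 104 to 136 CPM in WT and 224 to 246 CPM in KO-labelled skin. The KO-labelled falls were thus measured from a higher mean control level, although the control groups overlapped. The share of all tested genes that were lower was 14.3% in WT and 11.2% in KO-labelled skin.

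Among these, *Mx1*, an antiviral GTPase, was read at 59.5, 43.3 and 121 CPM in the KO-labelled control mice and at 4.52, 6.72 and 5.52 CPM in the KO-labelled IMQ mice. In WT skin it was read at 8.60, 15.2 and 3.72 CPM in control and 6.85, 4.17 and 4.89 CPM in IMQ. Its responses differed by -2.94 ± 0.68 (adjusted p 0.0498 by edgeR). *Psmb4*, *Ciita* and *Mx1* were the 3 of 121 tested genes of these lists whose responses differed between the labels. Over all tested genes, 1.37% had a higher and 0.783% a lower response, so this count lies near the general share. On the T and NK cells that read class I, 10 genes were tested. The activating receptor *Klrk1* (NKG2D) fell by 2.09 in WT skin (adjusted p 0.00389), where 2 of 10 were lower, and *Gzma*, a cytotoxic granule protease, rose by 3.95 in KO-labelled skin (0.0116), where 1 of 10 was higher.

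The 10 genes moved together between the mice of a group. WT control mouse 2 was the highest of its group for 10 of 10 genes, where 37.8% of all tested genes were highest in that mouse. WT IMQ mouse 2 was the highest for 9 of 10 (41.5% of tested genes), all but *Nlrc5*, and KO-labelled control mouse 2 the lowest for 10 of 10 (36.5%). Among the KO-labelled IMQ mice, none was highest or lowest for more than 6 of the 10. Same-numbered mice are different animals.

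Markers of other cells moved with these mice. The 9 general leukocyte markers summed to 724, 1058 and 402 CPM in WT control, 799, 1281 and 731 CPM in WT IMQ, 642, 311 and 491 CPM in KO-labelled control, and 1271, 1374 and 1749 CPM in KO-labelled IMQ. The sum was highest in mouse 2 of both WT groups, lowest in mouse 2 of the KO-labelled controls, and above all other groups in 2 of the 3 KO-labelled IMQ mice. The 6 macrophage markers summed to 700.2 to 2964 CPM in WT control, 1565 to 2857 in WT IMQ, 608 to 1197 in KO-labelled control and 2644 to 3631 in KO-labelled IMQ. The 8 endothelial markers summed to 338 to 443, 417 to 686, 253 to 464 and 823 to 846 CPM in the same order. The neutrophil markers summed to 6.81 to 23.7, 138 to 177, 9.16 to 29.4 and 185 to 469 CPM in that order. For keratinocyte markers the sums were 5082 to 8302, 32488 to 42658, 5714 to 7114 and 18953 to 29616 CPM. Both of these sums were higher after IMQ under both labels, without overlap.

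In the comparison where *H2-D1* rose, 9 of 9 leukocyte, 6 of 6 macrophage, 6 of 8 endothelial and 4 of 6 fibroblast markers were higher, and in WT skin 0, 1, 3 and 0 of them were. Keratinocyte markers were higher under both labels, 10 of 10 in WT and 8 of 10 in KO-labelled skin. Of 6 T cell markers, 3 were lower in WT skin and 1 was higher in KO-labelled skin. Among all tested genes 14.2% were higher and 14.3% lower in WT skin, and 14.1% and 11.2% in KO-labelled skin. None of the leukocyte, macrophage or endothelial markers was at 0 in any library. The part of these cells in the class I values was not tested. In bulk skin, fewer cells of a type and less RNA per cell cannot be told apart.

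The mean of the 10 standardized log2 levels over the 12 mice served as a common profile. Each of the 10 genes is part of this mean, which raises its own correlation, so these values cannot be set against those of other genes. *Psmb10* and *Psmb8* lay closest to it (Pearson r 0.978 and 0.977), *H2-D1* and *Tap1* further away (0.693 and 0.708), and *Nlrc5* apart from the rest (0.176). Among 15634 other genes with a mean of at least 1 CPM, those most like the profile were *Comp* (0.949), *Cnp* (0.939), *Tspan15* (0.939), *Nampt* (0.937) and *Cyp4b1* (0.936), all of them as a description over mice that share libraries and groups.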

How the data were processed

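RNA of back skin from 12 mice was depleted of ribosomal RNA and read from both ends (150 bp each). The authors deposited 1 table of raw read counts per Ensembl gene. HISAT and mm8 are named in the submitters' processing notes without a role, and the counting program, its strand setting and the annotation are not given in the sources used here. Names and positions came from GENCODE M21 (GRCm38), which held 52073 of 56923 identifiers (91.5%). The others held 0.567% of counts. *H2-Q8* and *H2-Q9* had no row, and names were matched without use of values.

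Counts were normalized by TMM, and CPM are relative to the normalized library size. Genes passing filterByExpr (minimum count 10, minimum total 15) were fitted with edgeR 4.0.16 (limma 3.58.1, R 4.3.3) by quasi-likelihood with robust spread, as 4 group means over all mice. The SE is the log2 fold change divided by the square root of F. A gene was called at an adjusted p under 0.05. Log2 ratios between genes were compared with a two-sided exact permutation test. Alternatives were DESeq2 1.42.0, RLE size factors, other count filters, only the mice compared and a replicate block. Class I heavy chains were also summed, and each mouse was left out in turn. A further alternative was the rule of a fold above 2 with an unadjusted p under 0.05. The paper gives a fold above 2 for its RNA-seq counts, and the unadjusted p was set here. The scripts were tested on simulated counts. No library duplicated another of its group.

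The 10 genes and all gene lists were chosen with earlier results of these data known. All 10 are named. Also named are fixed genes of the proteasome, interferon and class I families, and from each list genes with the largest called rise or fall in a contrast. *H2-M5*, *Jak2*, *Cd1d1* and others named beside them were picked after their values were seen. Promoter sequences are from RefSeq (GRCm38.p6), and plots were made with Python 3.11.15 and matplotlib 3.10.9.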

Additional observations from a re-analysis of the deposited data

Results flagged for a closer look

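For *Psmb4*, a structural subunit of the 20S proteasome, the IMQ response of KO-labelled mice exceeded that of WT mice by 0.87 on the log2 scale (adjusted p 0.028 by edgeR for the difference of responses). For *Ciita*, the activator of class II genes, the responses differed by 1.58 (adjusted p 0.0431 by edgeR). For *Mx1*, a type I interferon-stimulated gene, they differed by -2.94 (adjusted p 0.0498 by edgeR). At this threshold 1.37% of all tested genes had a higher and 0.783% a lower response in KO-labelled mice. Without 1 of the 12 mice the differences were called in 5 of 12 fits for *Psmb4*, 3 of 12 for *Ciita* and 4 of 12 for *Mx1*.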

How the results depend on the processing

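*Tap1* in WT skin was the one class I call kept under all alternatives and in all fits without 1 mouse. The counts that follow, also those from fits without 1 mouse, are given here without the share of all tested genes called. They therefore cannot show whether a setting with more class I calls also called more genes in general. By the rule of a fold above 2 with an unadjusted p under 0.05, 1 gene was lower in WT skin, 0 were higher and 0 lower in KO-labelled skin, and 2 had a higher response in KO-labelled mice. Without a filter on low counts, and with the class I heavy chains summed, 0 were higher in KO-labelled skin. DESeq2 called 3 lower in WT skin (*Tap1*, *Tap2* and *Psmb9*), 2 higher in KO-labelled skin (*H2-D1* and *H2-K1*) and, for the difference of responses, 2 higher and 1 lower. With only the compared mice fitted, 1 gene was lower in WT skin (*Tap1*), 2 were higher in KO-labelled skin and 1 (*Nlrc5*) was lower in KO-labelled IMQ than in WT IMQ skin.

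Same-numbered mice are different animals, and the main fit did not pair them. Deviations of same-numbered mice correlated at 0.101, 0.238 and 0.069 in WT and at -0.122, -0.028 and -0.044 in KO-labelled mice. Mice with different numbers correlated at -0.227 to 0.210 in WT and at -0.090 to 0.135 in KO-labelled mice. With 3 mice a group these values cannot settle whether the numbers carry any pairing. With the replicate block, 1 gene was lower in WT skin and 1 in KO-labelled skin, and in KO-labelled skin *H2-Q4* and *H2-T23* turned to -0.014 and -0.0057. The block lost the calls of *Tap2* in WT (adjusted p 0.0644) and of *Nlrc5* in KO-labelled skin (0.0692).

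Without 1 mouse, 1 to 5 genes were lower in WT skin, the 5 without WT IMQ mouse 2 (*Tap1*, *Tap2*, *Psmb9*, *Psmb10* and *Tapbp*). In KO-labelled skin 0 to 1 were higher and 0 to 2 lower, between IMQ groups 0 to 3 were higher, and 0 to 3 had a higher response in KO-labelled mice. The mean log2 ratio over the catalytic sites ran from -1.04 to -0.37 in WT, from -0.30 to 0.23 in KO-labelled, from 0.40 to 0.86 between IMQ groups and from -0.51 to 0.16 between control groups.

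No called gene value changed sign. With RLE size factors and with DESeq2, *Psmb6* and *Psme2* in WT skin turned to 0.012 and 0.0085 (in both). *H2-Q4* in KO-labelled skin turned to -0.023 without a filter, -0.014 with at least 10 counts in every library and -0.00202 with only the compared mice, and *H2-T23* to -0.00182 without a filter. Without 1 mouse, WT values ran from -0.049 to 0.19 for *Psmb5*, -0.095 to 0.14 for *Psmb6*, -0.13 to 0.060 for *Psmb7*, -0.25 to 0.12 for *Psme2* and -0.20 to 0.21 for *Erap1*. KO-labelled values ran from -0.074 to 0.17 for *Tapbp*, -0.19 to 0.22 for *Psmb8*, -0.16 to 0.28 for *Psmb10*, -0.099 to 0.0014 for *Psmb5*, -0.044 to 0.075 for *Psme1*, -0.24 to 0.17 for *H2-Q4*, -0.29 to 0.36 for *H2-Q7*, -0.33 to 0.00036 for *H2-T22*, -0.18 to 0.17 for *H2-T23* and -0.42 to 0.066 for *Ciita*. Between control groups they ran from -0.17 to 0.26 for *Tap1*, -0.22 to 0.096 for *Tap2*, -0.11 to 0.26 for *Tapbp*, -0.65 to 0.12 for *Psmb8* and -0.54 to 0.055 for *Psmb10*. The causes were not tested. With a fit without 1 mouse of a group, the remaining 2 are assumed to vary like the other groups. Outside these fits, of the gene values compared 660 kept direction and side of the threshold, 11 newly passed, 19 no longer passed and 10 turned sign. Each of the 10 genes was read far above the floor of 3 counts.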
